A study of Mus musculus with 6 samples.

Results

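Gene expression was described in mouse oligodendrocyte precursor cells that had received a control retrovirus, using the 3 arrays titled as controls out of 6 arrays in the series; the members were chosen by title alone. The cells came from the forebrain of Jcl:ICR embryos at E15.5, in mid-gestation, and were kept in medium with FGF2, a fibroblast growth factor, and PDGF-AA, the AA dimer of platelet-derived growth factor. All 3 control samples carried the virus and both factors, and RNA was taken 3 days after infection. The other 3 arrays hold cells given a Chd7 knockdown retrovirus and enter no value here. What the control virus encoded, how many embryos were pooled and whether the replicates were separate cultures are not given in the sources used here, so the spread between replicates may be technical.

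Oligodendrocyte precursor cells are dividing glial cells that later make the myelin of the central nervous system. The transcription factors Olig1, Olig2 and Sox10 set up and maintain the lineage, the receptor Pdgfra takes up the PDGF-AA signal that drives division, and Cspg4 (the NG2 proteoglycan) lies on the cell surface. FGF2 acts through the FGF receptors, and in culture the pair of factors keeps precursors dividing and delays maturation. Forebrain precursors arise in several waves from ventral and later dorsal progenitor zones, which are told apart by regional transcription factors.

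The measure was the intensity of each spot less the mean of the empty (blank) spots, scaled so that the median probe of each array was 25, and averaged as log2 over the 3 arrays. Genes were ranked by that mean and given a percentile among 19321 genes, with the brightest probe standing for each gene. A rank orders probe brightness, which also depends on how well a probe binds, so it does not order transcript amounts between genes. Blank spots were a lenient background, because 60.7% to 63.7% of 1225 probes for chemosensory receptors (odorant, vomeronasal, taste and trace amine receptors of nose and tongue) exceeded the blank mean by 2 SD. A gene is therefore called above the reference when it was brighter than the 95th percentile of those receptor probes, an intensity of 41.4 to 42.5, on all 3 arrays. By that rule 8340 of 19321 genes, 43.2%, were above the reference, and 10378 were above on no array. Without the chemosensory receptor genes, which set the reference, the share was 8287 of 18107, 45.8%.

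**Figure D1:**
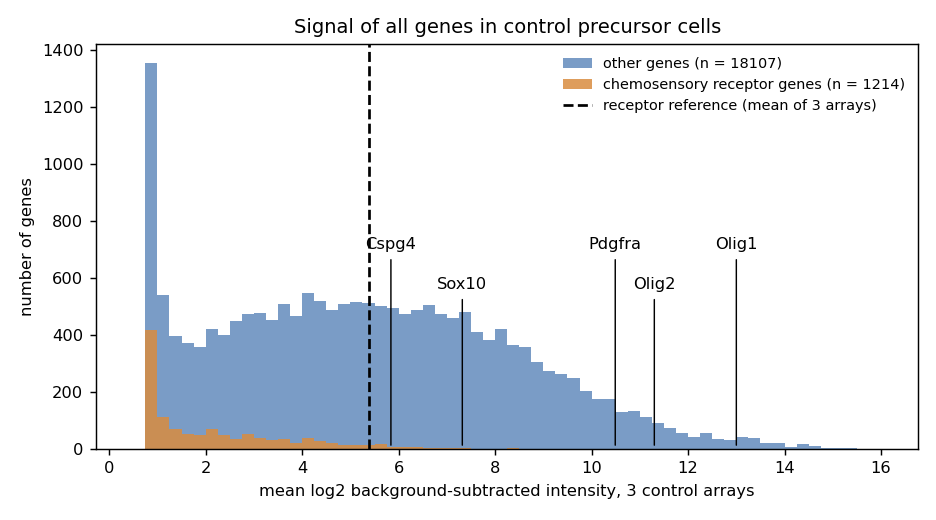
Histogram of the mean log2 background-subtracted intensity over the 3 control arrays for 18107 genes and, in orange, for 1214 chemosensory receptor genes, with the reference as a dashed line. The receptor genes pile up at the low end and 53 of them lie above the reference, while the 5 precursor markers all lie to its right, from Cspg4 at 5.84 to Olig1 at 13.0.

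All 5 markers of the precursor state were above the reference on every control array, beside 43.2% of all genes. Olig1 read 7861, 9406 and 7414 in replicates 1, 2 and 3, a log2 mean of 13.0 ± 0.18 (SD, n = 3) at percentile 99.2. Olig2 read 2513, 2354 and 2720 at percentile 97.4. Both basic helix-loop-helix factors thus gave bright, repeatable signals with no array standing apart. Pdgfra read 1494, 1245 and 1610 at percentile 95.3. Sox10 was dimmer, at 177, 142 and 161 and percentile 75.1. Cspg4 read 57.6, 53.7 and 60.6 at percentile 60.1, close to the reference of 41.4 to 42.5 but above it on each array. All 5 defining markers of the labelled cell type were therefore above the reference, with Cspg4 the nearest to it. Some receptor probes passed the same rule, the brightest being the odorant receptor Olfr151 at 385, 366 and 303. Sox10 and Cspg4 lay within the range of those probes, whereas Olig1, Olig2 and Pdgfra were brighter.

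In the mouse assembly GRCm38.p6, RefSeq places Olig2 at chr16:91225550-91228677 and Olig1 at chr16:91269769-91271939, next to each other on the chromosome. Pdgfra lies at chr5:75151322-75198206, Sox10 at chr15:79154913-79164490 and Cspg4 at chr9:56865104-56899870. The promoters of the 3 markers that the RefSeq table held are shown with that of Olig3, a relative of Olig2 that was not above the reference, and with those of Fabp7 and Rps18, which stood at ranks 1 and 19 of the whole array. Each sequence is the 100 bases before the transcript start, written 5′ to 3′ on the strand of the gene, and capitals mark CG pairs.
Pdgfra, chr5:75152151-75152250: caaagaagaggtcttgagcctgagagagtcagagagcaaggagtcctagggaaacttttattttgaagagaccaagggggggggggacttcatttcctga
Olig2, chr16:91225450-91225549: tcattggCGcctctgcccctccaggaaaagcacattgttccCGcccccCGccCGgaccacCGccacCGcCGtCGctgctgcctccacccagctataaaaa
Cspg4, chr9:56865004-56865103: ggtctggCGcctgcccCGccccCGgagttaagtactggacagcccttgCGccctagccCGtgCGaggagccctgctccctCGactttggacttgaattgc
Olig3, chr10:19356439-19356538: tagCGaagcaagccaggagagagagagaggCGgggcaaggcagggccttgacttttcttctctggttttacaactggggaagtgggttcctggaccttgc
Fabp7, chr10:57784823-57784922: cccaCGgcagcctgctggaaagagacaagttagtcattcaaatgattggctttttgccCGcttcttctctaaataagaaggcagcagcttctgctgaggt
Rps18, chr17:33955666-33955765: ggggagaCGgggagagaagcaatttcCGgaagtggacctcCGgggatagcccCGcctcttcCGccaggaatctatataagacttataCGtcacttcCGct

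The Olig2 stretch held 8 CG pairs and those of Cspg4 and Rps18 held 7 each, whereas those of Fabp7 and Olig3 held 2 and that of Pdgfra held 0. The start used for Pdgfra lies inside the annotated span of the gene, so an earlier start has another promoter. Among these windows a bright signal went with both CG-rich and CG-poor sequence, as Fabp7, at percentile 100, had few CG pairs.

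The brightest probe of the array was that of Fabp7, the brain fatty-acid-binding protein of radial glia and glial precursors, at 41295, 47540 and 51968. Ppia (cyclophilin A) at 42565, 42531 and 48132 and Eef1a1, which brings transfer RNA to the ribosome, at 42379, 43824 and 42032 came next. Ckb, the brain creatine kinase that buffers ATP, read 38781, 36795 and 34243. The 25 brightest genes were otherwise parts of the ribosome (Rpl41, Rps2, Rpl32, Rps18, Rps29, Rpl19, Rps3a1 and Rpl23a), histone H2A genes, the cytoskeletal genes Tmsb4x, Tuba1b and Actg1, the iron store Ftl1, the acyl-CoA-binding protein Dbi, the chromatin protein Hmgn2 and the predicted gene Gm11942. Of 66 ribosomal protein genes 61 were above the reference and 32 were among the brightest 100 genes. Histone genes gave 36 of 52 above and 7 among the brightest 100, but their copies are nearly identical and a probe may bind several of them.

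Replicates lay close together. Among the 8340 genes above the reference the median SD over the 3 arrays was 0.12 log2 units and the 95th percentile was 0.33. The range over the 3 arrays was under 0.5 log2 units for 7518 of them, 90.1%, and over 1 for 42. The lists described next were chosen with earlier results of these data known; they hold 977 measured genes, of which 417 were above the reference, so each count is a description beside the 43.2% of all genes.

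**Figure D2:**
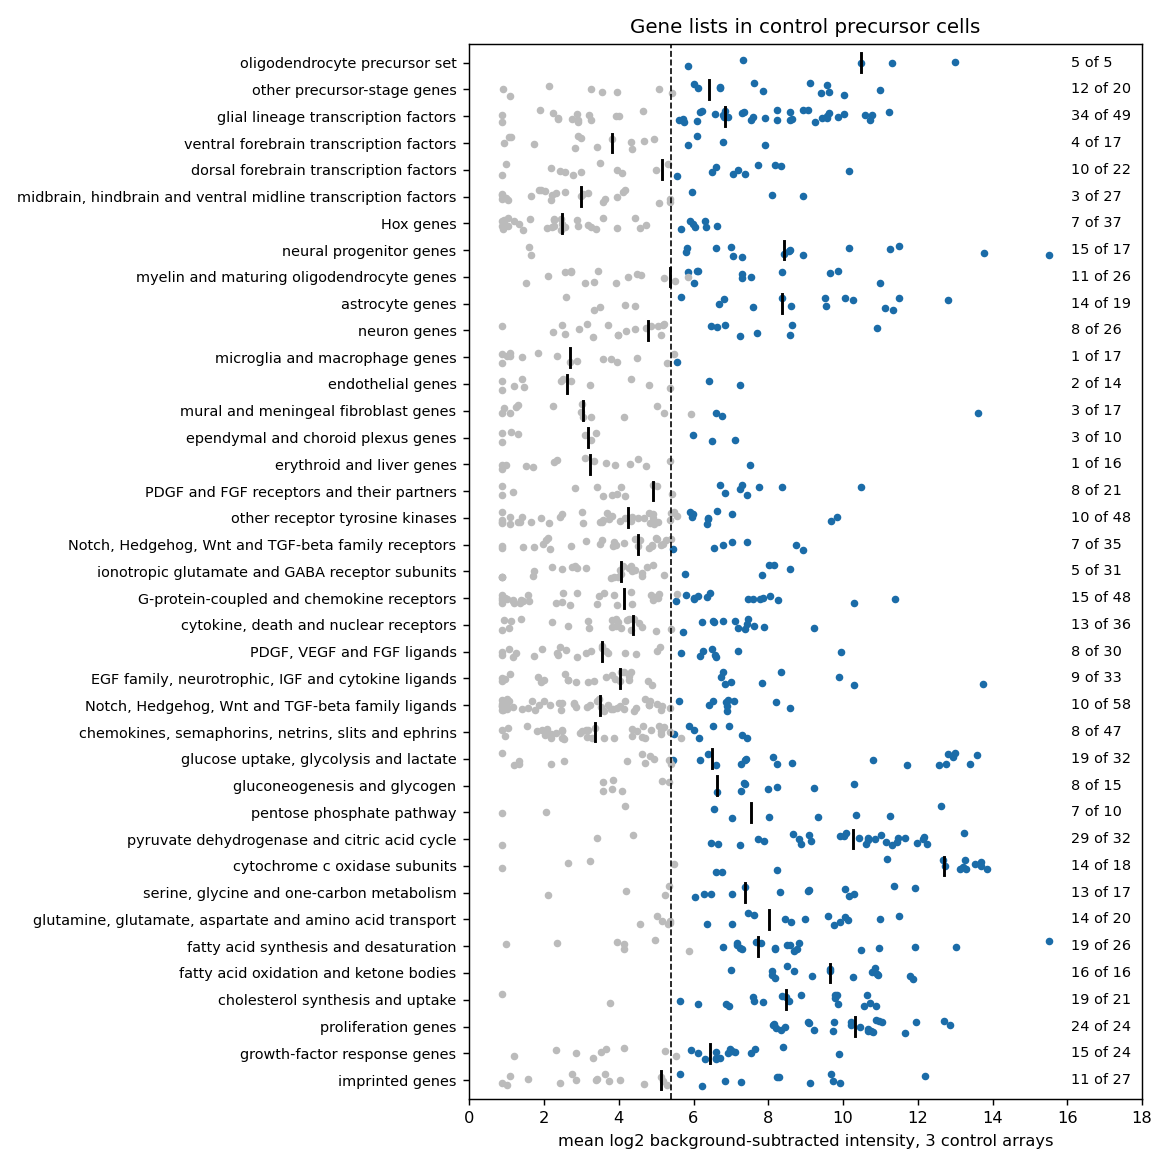
Mean log2 background-subtracted intensity over the 3 control arrays for every measured member of 39 gene lists, with blue points above the reference on all 3 arrays, grey points not, black ticks at list medians and the reference as a dashed line. The counts at the right run from 1 of 17 microglial genes to 24 of 24 proliferation genes.

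Transcription factors of the glial lineage were above the reference for 34 of 49 measured genes, 69.4%, beside 43.2% of all genes. Hes6, a Hes family factor that antagonises Hes1, read 2607, 2359 and 2287, and Sox4, a SoxC factor of immature neural cells, read 1877, 1702 and 1667. The inhibitors of differentiation Id2 (1467, 1688 and 1972) and Id4 (680, 698 and 922), which hold back basic helix-loop-helix factors, were each highest in replicate 3. Id3 read 1042, 1117 and 966 and Id1 read 420, 407 and 361, with replicate 3 lowest, so the 4 Id genes were all above the reference without a common order of the arrays.

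Nuclear factor I genes, which act in gliogenesis, were split by probe. Nfib read 775, 794 and 801 and Nfix 777, 793 and 697, while the Nfia probe read 5.46, 4.63 and 5.43, far under the reference. Such a low reading can come from a probe that binds poorly and is no evidence that the gene was silent. The same holds for Tcf4, a partner of Olig2 (10.4, 8.61 and 8.88), and for Zeb2, a Smad-binding factor that oligodendrocyte maturation requires (7.3, 8.31 and 7.19). The other Zeb2 probe was also far under the reference, at 7.16, 6.45 and 5.86. Tcf12, which like Tcf4 is an E protein, read 385, 353 and 422.

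Of the SoxD and SoxE factors, Sox6 (143, 155 and 199), Sox8 (75.7, 67.5 and 61.0), Sox9 (116, 113 and 107), Sox10 and Sox13 (201, 187 and 186) were above the reference. Sox5, at 6.9, 4.8 and 4.19, was not. Nkx2-2, a homeodomain factor that rises before differentiation, was above at 89.1, 97.5 and 102. Several factors that act in differentiation were not above: Myrf, which switches on myelin genes, read 17.1, 14.9 and 14, Nkx6-2 read 5.83, 9.08 and 8.26 and Zfp488 read 7.17, 7.21 and 5.86. Tcf7l2, an effector of Wnt signalling in newly formed oligodendrocytes, was at the floor on 3 arrays. Others with a role in differentiation were above, among them Yy1 (292, 289 and 313), Klf6 (474, 460 and 524) and Klf9 (106, 107 and 130, with its other probe below).

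The same list held chromatin regulators. Chd7, the remodeller that the series targets in its other arm, read 626, 520 and 694 in these control cells. Its second probe read 169, 140 and 150, so both were above the reference. The remodelling ATPase Smarca4 read 945, 873 and 966, and the deacetylases Hdac1 (519, 472 and 602) and Hdac2 (1609, 1457 and 1542), which oligodendrocyte differentiation requires, were above it too. Chd8 gave 230, 230 and 265 from 1 probe and 10.1, 6.87 and 10.2 from the other, so its call rests on the probe chosen. Ep300, a histone acetyltransferase, likewise gave 81.1, 76.4 and 66.9 from 1 probe and 4.76, 5.11 and 5.69 from the other.

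Regional factors gave a mixed picture. Dorsal forebrain factors were above the reference for 10 of 22 genes, 45.5%, and ventral forebrain factors for 4 of 17, 23.5%. The share was 43.2% of all genes and 45.8% of genes other than chemosensory receptors, so the dorsal share was close to both. Lhx2, a LIM factor of cortical progenitors, was the brightest dorsal factor at 1181, 985 and 1279. Emx2 read 212, 205 and 214, Otx1 320, 255 and 302, and Dmrta2 205, 144 and 160, all above on each array. Other genes of cortical progenitors were below: Neurog2 read 8.4, 4.37 and 2.63, Eomes 19.1, 16.3 and 15.9, Dmrt3 8.92, 4.35 and 3.93, and Emx1 7.28, 8.85 and 8.0. Pax6, of dorsal radial glia, read 115, 88.7 and 89.4. Of genes of cortical neurons, Tbr1 read 1.97, 2.01 and 1.93 and Neurod2 5.79, 5.02 and 6.94. Neurod1, a neuronal differentiation factor, was above at 127, 161 and 115. Also above in the dorsal list were Cux1 (284, 335 and 364), Otx2 (71.3, 88.7 and 114) and Neurog1 (48.1, 43.1 and 50.7). Nr2f1 was above at 161, 151 and 131 from its brighter probe, and its other probe passed on 1 array.

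On the ventral side Lhx6, a factor of interneurons from the medial ganglionic eminence, read 232, 241 and 254 and was the brightest of its list. Ebf1 was above at 70.2, 69.8 and 66.6 from its brightest probe. Its other probes, at 4.33, 3.76 and 5.36 and at 3.18, 2.97 and 3.27, were below, so its call rests on the probe chosen. Meis2, of the lateral eminence, read 97.3, 114 and 124, and Dlx1 read 45.9, 67.5 and 63.2. The other Dlx genes were not above: Dlx2 read 26.9, 30.1 and 35.9, and Dlx5 and Dlx6 were lower. Nkx2-1, which marks the medial eminence and preoptic area, was near the floor at 1.97, 1.79 and 1.93. Gsx2, of the lateral eminence, read 27.9, 21.2 and 27.6. The ventral readings above the reference lay within the range of receptor probes that passed the same rule, the brightest of which, Olfr151, read 385, 366 and 303. The dorsal readings of Emx2, Otx1, Dmrta2, Pax6, Neurod1, Nr2f1, Otx2 and Neurog1 lay within that range too. Lhx2 was brighter, and Cux1 exceeded Olfr151 on replicate 3.

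Genes of the midbrain, hindbrain and floor plate were above for 3 of 27 and Hox genes for 7 of 37, beside 43.2% of all genes. Dbx2 (560, 533 and 378) and Dbx1 (242, 277 and 302), homeodomain genes of progenitors at intermediate dorsoventral levels, were the brightest of these. Ptf1a, of the same list as the Dbx genes, was also above at 58.5, 63.2 and 66.8, and Irx1 and Barhl1 passed on 1 array each. En1, Gbx2, Pax7, Lmx1a and Foxa2, which mark midbrain, hindbrain or floor plate, were all below the reference on each array. The Hox gene with the highest mean was Hoxa11, at 97.3, 100 and 99.2. Hoxa3 read 82.6, 74.2 and 80.8 from its brighter probe, but its other probe was below. The other Hox genes above the reference, Hoxc9, Hoxd1, Hoxa7, Hoxb9 and Hoxc13, lay between 47.9 and 101. The Hox readings also fall in the range of the receptor probes that passed.

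Genes of neural progenitors were above the reference for 15 of 17, 88.2%, beside 43.2% of all genes. Besides Fabp7 they included Vim, the intermediate filament vimentin, at 13370, 14395 and 13924, and Cdh2 (N-cadherin) at 2371, 2300 and 2631. Nes, the filament nestin, read 359, 353 and 429, and Hopx, of outer radial glia, read 426, 320 and 289. Prom1 (CD133) read 137, 117 and 132. Gli3 and Fut4 were the exceptions, at 4.15, 2.07 and 3.29 and at 4.81, 2.31 and 2.71.

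Other genes of the precursor stage were above for 12 of 20, 60.0%, beside 43.2% of all genes. Matn4, a matrix protein of precursors, read 1972, 2049 and 2131. The lecticans, proteoglycans of the brain matrix, were above in each of 3 cases: Bcan read 677, 651 and 696, Ncan 239, 226 and 233, and Vcan 75.4, 64.8 and 68.7. Cspg5 (neuroglycan C) read 1002, 1068 and 1048 and Lhfpl3 read 881, 760 and 739, and the 3 arrays agreed closely for both. Gpr17, a receptor of precursors committed to differentiate, was below at 17.4, 14.8 and 14.2, as was Neu4 at 10.8, 9.89 and 8.42. Other members of the list were below too, among them Pcdh15 (10.2, 14.3 and 11.1) and Tnr (5.76, 3.27 and 4.36). Emid1 (32.1, 35.6 and 34.1) and Susd5 (1.97, 1.69 and 1.93) were also below on each array, and C1ql1 passed on 2 arrays at 49.0, 36.9 and 44.0.

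Markers of other cell types were read on the same arrays. Astrocyte genes were above for 14 of 19, 73.7%, beside 43.2% of all genes. Aldoc (6835, 6813 and 8115), the glutamate transporter Slc1a3 (3170, 2844 and 2683), the gap junction gene Gja1 (1820, 2909 and 3271) and Aldh1l1 (977, 638 and 619) were bright, and progenitors and precursors also express several of them. S100b, which precursors and astrocytes share, read 302, 362 and 335, and the water channel Aqp4 read 174, 212 and 189. Gfap, the filament of mature and reactive astrocytes, was below at 6.85, 6.3 and 4.96, and Gjb6 was below as well. The summed intensity of the 19 astrocyte genes was 19301, 19852 and 21310 in replicates 1 to 3, and their part in the results above was not tested.

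Neuron genes were above for 8 of 26, 30.8%, beside 43.2% of all genes. Dcx, of migrating young neurons, read 361, 348 and 460, Tubb3 84.2, 109 and 109, and Gap43, a growth cone protein, 1506, 2237 and 2088. Snap25, Map2, Nefm, Syn1 and the glutamate transporters of synaptic vesicles Slc17a6 and Slc17a7, all of mature neurons, were below on each array. Nrgn (neurogranin), also of mature neurons, was above at 156, 150 and 148, and Syt1 and Rbfox3 passed on 1 array each. Genes of inhibitory neurons were mixed. Sst, the peptide somatostatin, read 122, 107 and 112 and Slc32a1, the vesicular GABA transporter, 86.6, 79.7 and 99.6, while Gad2 read 6.58, 7.85 and 8.79. The summed intensity of the 26 neuron genes was 3155, 3984 and 4026, with replicate 1 lowest.

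Microglial genes were above for 1 of 17, endothelial for 2 of 14 and erythroid or liver genes for 1 of 16, beside 43.2% of all genes. The microglial gene was Cd68, at 45.0, 47.8 and 48.1, just over the reference. Csf1r passed on 2 arrays at 51.6, 43.5 and 39.9, and Aif1 lay just under the reference at 41.4, 37.7 and 39.3. Tmem119 and Adgre1 were at the floor, and C1qa read 3.86, 3.37 and 3.54. Of the endothelial markers, Cldn5 and Tek were at the floor and Pecam1 at 1.97, 3.2 and 1.93. Kdr was below at 33.2, 32.1 and 21.1, and Flt1 passed on 2 arrays at 26.6, 44.3 and 59.4. The summed intensities of the microglial list were 237, 235 and 222 and those of the endothelial list 351, 488 and 312. The endothelial genes above were Slco1c1, a thyroid hormone transporter that read 146, 264 and 90.6, and Egfl7, a secreted vessel protein, at 80.4, 87.9 and 87.1. Mural and fibroblast genes were above for 3 of 17, and Igfbp2, an IGF-binding protein that neural progenitors also make, held nearly all of their sum at 11674, 12884 and 13126. The other members above were Anpep (116, 103 and 105) and Twist1 (92.7, 97.2 and 99.6). Col1a1, Col1a2, Rgs5, Lum and Pdgfrb were all below, and Acta2, of smooth muscle, read 39.3, 68.2 and 84.1. Ependymal and choroid genes were above for 3 of 10, with the ciliary factor Foxj1 at 156, 133 and 125 and the choroid gene Ttr below at 4.23, 8.36 and 17.8.

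**Figure D3:**
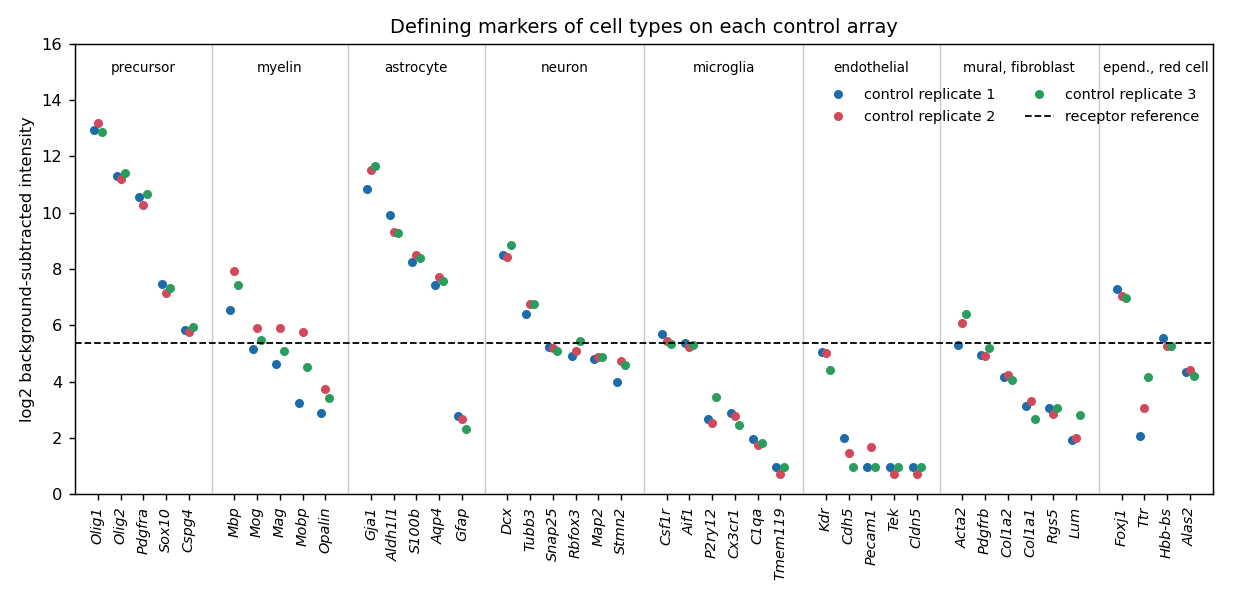
Log2 background-subtracted intensity of the defining markers of 8 groups of cell types on each of the 3 control arrays, with the receptor reference as a dashed line. The 5 precursor markers and 4 of 5 astrocyte markers lie above the line on all arrays, whereas the endothelial markers and all microglial markers but Csf1r and Aif1, which sit at the line, lie under it.

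Myelin and maturing oligodendrocyte genes were above for 11 of 26, 42.3%, close to the 43.2% of all genes. Car2, a carbonic anhydrase of the lineage, read 2592, 1564 and 2069, Sirt2 689, 926 and 1291, and Cnp, the nucleotide phosphodiesterase of myelin, 718, 861 and 857. Ugt8a, which makes galactocerebroside, read 275, 338 and 395. Mbp, the basic protein that compacts myelin, read 94.3, 244 and 174, and Cldn11, a tight junction protein of the sheath, read 46.1, 90.5 and 73.7. Mobp, Mag, Mog and Opalin, further genes of the sheath, were not above the reference on all 3 arrays. Mobp read 9.41, 53.9 and 22.7, Mag 24.9, 59.3 and 34.1, Mog 35.4, 59.1 and 44.9, and Opalin 7.3, 13.2 and 10.6, so Mog passed on replicates 2 and 3 and Mobp and Mag on replicate 2. Aspa (57.8, 60.6 and 55.9), which breaks down N-acetylaspartate, and Trf, transferrin, were above on all 3.

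Several of these genes had the same order of arrays, with replicate 1 lowest and replicate 2 highest. Of 25 myelin list genes above the blank limit on all arrays, 14 were lowest in replicate 1 and 15 were highest in replicate 2. The same shares over all 16614 genes above the blank limit were 34.1% lowest in replicate 1 and 21.7% highest in replicate 2. The ratio of replicate 2 to replicate 1 was 5.72 for Mobp, 2.58 for Mbp, 2.38 for Mag and 2.16 for Mal. Car2 ran the other way, with a ratio of 0.6. Neuron genes were also most often lowest in replicate 1 (16 of 25) but were highest in replicate 2 for 6 and in replicate 3 for 13. Whether the share of maturing cells differed between the control samples was not tested, and in bulk RNA fewer cells of a type and less RNA per cell cannot be told apart.

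**Figure D4:**
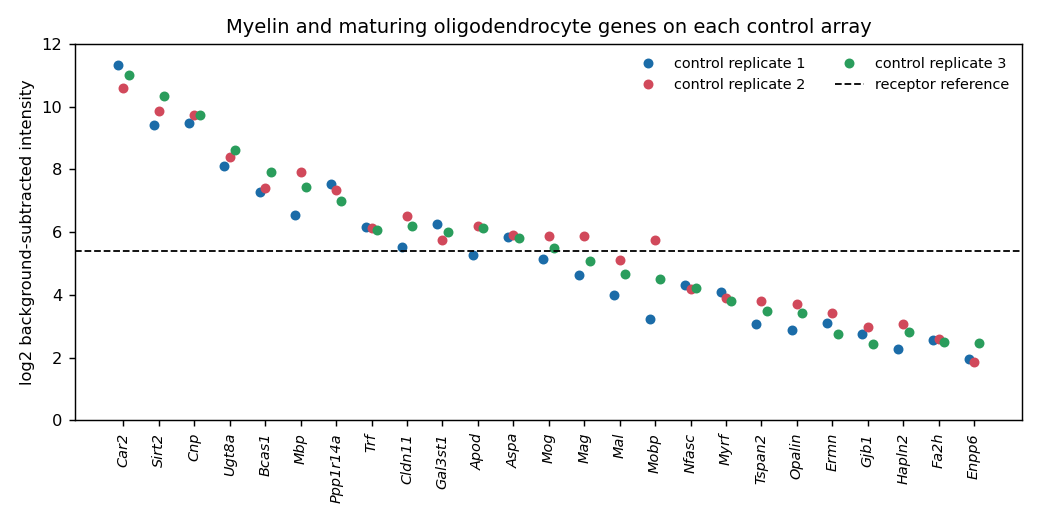
Log2 background-subtracted intensity of 25 myelin and maturing oligodendrocyte genes on each control array, ordered by mean, with the reference as a dashed line. For Mbp, Cldn11, Mog, Mag, Mal and Mobp replicate 1 (blue) is the lowest and replicate 2 (red) the highest point.

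Receptors were above the reference for 58 of 219 genes, 26.5%, beside 43.2% of all genes. Among the receptors for the supplied factors, Pdgfra was described above, and Pdgfrb, of mural cells, was below at 30.8, 29.8 and 36.5. Of the 4 FGF receptors only Fgfr1 was above on all arrays, at 111, 115 and 121. That reading lay within the range of the chemosensory receptor probes that passed the same rule. Fgfr2 read 47.8, 39.9 and 41.3 and passed on 1 array, Fgfr3 read 24.7, 19.2 and 12.5, and Fgfr4 2.09, 2.9 and 1.93. Fgfrl1, a receptor without a kinase domain, read 209, 205 and 236. Heparan sulphate proteoglycans, which help FGF bind its receptors, were above for Gpc2 (363, 265 and 381), Gpc4 (184, 163 and 172), Sdc2 (142, 152 and 163) and Sdc4 (109, 103 and 105), whereas Gpc1, Gpc3, Gpc5, Gpc6, Sdc1 and Sdc3 were not.

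Of 48 other receptor tyrosine kinases 10 were above, 20.8%, beside 43.2% of all genes. Egfr, the EGF receptor of progenitors, read 880, 748 and 823, and its second probe, at 137, 197 and 168, was above as well. Ryk, a Wnt co-receptor, read 861, 853 and 1031. Epha5, Ephb3, Ephb1 and Epha4, receptors for ephrins, were above at 54.1 to 133, as were Tyro3 (66.5, 82.6 and 108), Ntrk2 (98.3, 75.9 and 78.5), Ddr1 and Igf1r (55.4, 57.1 and 68.1). The neuregulin receptors Erbb2 and Erbb4 were below, Erbb4 at 32.2, 28.7 and 29.3, and Insr, Met and Ret were at or near the floor.

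Receptors of the Notch, Hedgehog, Wnt and TGF-beta families were above for 7 of 35, 20.0%, beside 43.2% of all genes. Notch1 read 517, 460 and 489, and its target Hes5 read 316, 364 and 479 and Hes1 158, 154 and 159. Notch2, Notch3 and Notch4 were below. Smo, the signal transducer of the Hedgehog pathway, read 125, 120 and 89.6 and Gas1, a Hedgehog co-receptor, 439, 436 and 414, while the Ptch1 probe read 5.08, 4.69 and 3.8. Bmpr1a, a type I BMP receptor, read 183, 173 and 166, and Fzd3 and Fzd2, receptors for Wnt proteins, were the Frizzled genes above.

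Transmitter receptors were few. Of 31 glutamate and GABA receptor subunits 5 were above, including the AMPA receptor subunits Gria2 (248, 234 and 306) and Gria3 (228, 289 and 338) and the GABA-A subunit Gabrg1 (174, 287 and 242). Grin3a, an NMDA receptor subunit, read 376, 317 and 459, but its other probe was below. Gria1 read 49.1, 53.5 and 62.7, and its other probe was below too, so the count is 3 with the dimmest probe of each gene. The remaining subunits included Gria4 at 27.9, 33.3 and 30.1 and Grin2b at 25.7, 29.8 and 26.0.

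G-protein-coupled and chemokine receptors were above for 15 of 48, 31.2%, beside 43.2% of all genes. F2r, the thrombin receptor, was the brightest at 2641, 2450 and 2906, and Ednrb, the endothelin B receptor, read 1230, 1382 and 1147. S1pr1, for sphingosine-1-phosphate, read 269, 288 and 362, and Ackr3, a scavenging receptor for the chemokine Cxcl12, read 219, 268 and 316. Grm3, a metabotropic glutamate receptor, read 164, 176 and 190. Lpar1, a lysophosphatidic acid receptor of maturing oligodendrocytes, was below at 5.46, 5.11 and 4.53, and S1pr5 was below at 31.2, 34.8 and 29.5. Cxcr4, the signalling receptor for Cxcl12, passed on replicate 1 at 42.5, 33.0 and 26.9. Adgrg1 (GPR56), an adhesion receptor that keeps precursors dividing, read 72.8, 70.7 and 65.8.

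Cytokine, death and nuclear receptors were above for 13 of 36, 36.1%, beside 43.2% of all genes. Tnfrsf19 (TROY) read 651, 508 and 649. Both chains of the interferon gamma receptor (Ifngr1 at 207, 234 and 269, Ifngr2 at 168, 179 and 175) and both of the interferon alpha receptor (Ifnar1 and Ifnar2) were above, as was Il6st (gp130), the shared signal chain for the LIF and CNTF family, at 163, 155 and 179. Its partners Lifr (20.7, 17.7 and 19.8) and Cntfr (21.1, 21.7 and 17.9) were below. Thra, the thyroid hormone receptor alpha, read 148, 137 and 129 and Rxrb, its partner, 122, 100 and 109, while Thrb read 5.14, 5.04 and 3.84 and Rxrg 8.56, 8.9 and 10.1. Rarb, a retinoic acid receptor, read 72.0, 95.5 and 114.

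Ligands were above the reference for 35 of 168 genes, 20.8%, beside 43.2% of all genes. Of the 2 factors in the medium, Fgf2 was at the floor on all 3 arrays, whereas Pdgfa, the gene of the PDGF-AA chain, read 85.8, 91.4 and 94.3 and was above. Pdgfc, also a ligand of Pdgfra, read 51.5, 47.2 and 54.8, and Pdgfb was below. The Pdgfa and Pdgfc readings lay within the range of the chemosensory receptor probes that passed the same rule. Of the FGF genes Fgf1 was above at 65.3, 76.6 and 75.8, and so were Fgf12 and Fgf13, whose products stay inside the cell, although another probe of Fgf13 was below. Vegfb read 946, 970 and 1050, Vegfc 92.9, 92.2 and 99.5 and Pgf 139, 149 and 149, while Vegfa, a gene induced by low oxygen, read 29.0, 26.7 and 13.4.

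Heparin-binding growth factors led the ligands. Ptn (pleiotrophin) read 14201, 12969 and 13819 at percentile 99.7, and its relative Mdk (midkine) read 1126, 1413 and 1234. Csf1, the ligand of the microglial receptor Csf1r, read 857, 928 and 1064. Pros1 (315, 358 and 307) and Gas6 (135, 127 and 123), ligands of the Tyro3, Axl and Mertk receptor family, were both above. Kitl, Hbegf, Gdnf and Nrtn were above at 101 to 259. The neuregulins Nrg1 (18.4, 19.5 and 22.4), Nrg2, Nrg3 and Nrg4, and also Bdnf, Igf1 (13.0, 17.0 and 14.5), Igf2, Lif and Tnf, were below.

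Of 58 ligands of the Notch, Hedgehog, Wnt and TGF-beta families 10 were above, 17.2%, beside 43.2% of all genes. The Notch ligands were Dll3, which acts within the cell, at 419, 360 and 365, Dll1 at 105, 119 and 133, and Dner at 314, 358 and 231. Jag1 (10.4, 13.0 and 9.28), Jag2 and Dll4 were below. Wnt7a, which precursors use to signal to vessels, read 114, 117 and 116, and its relative Wnt7b passed on 2 arrays at 42.7, 45.8 and 36.0. Bmp6 (131, 129 and 142), Bmp7 (114, 124 and 123), Bmp10 (146, 134 and 85.3) and Tgfb2 were above. Bmp4, an inhibitor of oligodendrocyte formation, read 27.3, 12 and 28.5. Shh, at 5.8, 3.2 and 2.11, was below, whereas Dhh, also a Hedgehog ligand, was above at 48.2, 47.5 and 52.4. Apart from Dll3, the members of this list above the reference lay within the range of the chemosensory receptor probes that passed.

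Guidance cues and chemokines were above for 8 of 47, 17.0%, beside 43.2% of all genes. Cxcl14 read 164, 183 and 166 from its brighter probe. Sema4a (181, 152 and 143), Sema3a (134, 107 and 131), which repels precursors, and Sema5a were above, and so were Ntn4, Efnb1, Efna4 and Cx3cl1, the ligand of a microglial receptor. Ntn1, Slit1, Slit2, Slit3 and Cxcl12 were below on each array.

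Genes listed as growth-factor response genes were above for 15 of 24, 62.5%, beside 43.2% of all genes. All control samples carried both factors, so whether the factors induced these genes was not tested. Dusp6, a phosphatase that limits ERK, read 1011, 940 and 905. The ETS factors Etv4 (171, 197 and 192) and Etv5 (128, 118 and 120) were above, as were Spry1 (114, 84.4 and 93.1) and Spred1 (99.5, 99.2 and 92.4), inhibitors in the same pathway. Myc read 134, 129 and 151. Spry4 (13.2, 13.6 and 11.3), Spred2 (2.31, 2.66 and 1.93), Dusp5 and Egr3 were below on each array. Spry2 passed on 1 array at 43.0, 33.4 and 36.5, and Fos on 2 at 34.4, 60.5 and 46.2. Egr1, an immediate early gene, read 102, 180 and 49.4 and had the widest range of the list.

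All 24 proliferation genes were above the reference, at percentiles 82.0 to 99.1, beside 43.2% of all genes above it. Pcna, the sliding clamp of replication, read 6421, 7819 and 8293, Ccnd2, a G1 cyclin, 6629, 6623 and 6530, and Cdk1 3808, 3944 and 4150. Ccnd1, induced by growth factors, read 1241, 1443 and 1515. Mki67 read 549, 543 and 550 and Top2a 1550, 1594 and 1762. Genes of DNA replication, of S phase and of mitosis were thus all read above background, and 16 of 24 were highest in replicate 3, beside 55.8% of all genes above the reference.

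Metabolic genes were above the reference for 158 of 207, 76.3%, beside 43.2% of all genes. The glycolysis list gave 19 of 32. Pgk1 read 11413, 12596 and 12906, Pgam1 10910, 11512 and 9993, and Gapdh 6161, 7024 and 7493. The lactate dehydrogenase genes Ldha (9768, 9100 and 6239) and Ldhb (7800, 8098 and 7650) were both bright, with Ldha lowest in replicate 3. Several forms used by other tissues were below: the sperm forms Pgk2, Ldhc and Gapdhs read under 4 on each array, the liver and red cell pyruvate kinase Pklr read 4.17, 4.43 and 5.28 beside 1807, 1823 and 1688 for Pkm, and the liver transporter Slc2a2 read 1.97, 2.26 and 2.69. The muscle form Pgam2, at 46.7, 43.5 and 41.7, was just above.

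At the entry of glucose, the transporter Slc2a1 (GLUT1) read 303, 293 and 246 and Slc2a3 (GLUT3) 80.6, 74.4 and 61.5. Hk2 was above at 108, 86.0 and 99.1, and Hk1 lay at the reference with 37.7, 44.1 and 40.8. The phosphofructokinases Pfkm (293, 494 and 432), Pfkp (153, 178 and 173) and Pfkl (155, 167 and 143) were all above. The monocarboxylate transporter Slc16a1 (MCT1), through which oligodendroglia move lactate, read 291, 286 and 324, and Slc16a3 read 124, 270 and 145 with replicate 2 high.

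The pyruvate dehydrogenase and citric acid cycle list gave 29 of 32, and the exceptions were Pdk2, Pdk4 and the testis form Pdha2. Mdh2 read 9530, 9212 and 10015, Cs, citrate synthase, 2768, 2805 and 2999, and Ogdh 151, 143 and 164. The 4 succinate dehydrogenase genes Sdha, Sdhb, Sdhc and Sdhd read 2023 to 4772. Cytochrome c oxidase subunits gave 14 of 18, with Cox6a1 (15751, 14131 and 14794), Cox4i1 (12641, 12871 and 13995) and Cox8a (12240, 12565 and 14660) highest. The muscle form Cox6a2 (8.54, 8.14 and 3.42), Cox7b2 and the testis form Cox8c were below. Other forms of restricted tissue use were above, among them Cox7a1 (86.6, 117 and 128), Cox4i2 (88.2, 94.1 and 112) and Cox6b2, for which 1 of 3 probes was below.

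Fatty acid oxidation and ketone body genes were above for 16 of 16, beside 43.2% of all genes. Oxct1, which opens ketone bodies to the citric acid cycle, read 3975, 3578 and 3092, Acat1 3674, 3490 and 4150, and Acadm, a dehydrogenase of medium-chain fatty acids, 1891, 1761 and 1877. Cpt1a (307, 254 and 319), which brings fatty acids to mitochondria, and the brain form Cpt1c (369, 442 and 441) were both above. Bdh1 read 566, 581 and 583.

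Lipid synthesis genes were bright as well. Cholesterol genes were above for 19 of 21: Msmo1 read 1917, 1836 and 1907, Sqle 1520, 1933 and 1612, and Hmgcs1, at the entry of the pathway, 1738, 1407 and 1432. Pmvk was at the floor, and Cyp46a1, which removes cholesterol from neurons, read 12.6, 14.7 and 13.8. Fatty acid synthesis genes were above for 19 of 26. Scd2, the desaturase of the developing brain, read 9407, 8048 and 7758, Elovl5 3790, 3582 and 4261, and Fasn 385, 403 and 454. Acacb, the muscle and liver form of acetyl-CoA carboxylase, was below at 18.4, 18.4 and 15.7, beside Acaca at 467, 396 and 487.

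Serine and one-carbon genes were above for 13 of 17. The 3 enzymes of serine synthesis were Phgdh (1039, 1194 and 1210), Psat1 (3657, 3901 and 4207) and Psph (1258, 1137 and 1405). Shmt2, the mitochondrial enzyme that turns serine to glycine, read 542, 507 and 567, while the cytosolic Shmt1 read 37.7, 32.6 and 55.3 and passed on 1 array. Glutamine and amino acid genes were above for 14 of 20, with Glud1 at 1964, 2137 and 1951, Glul, glutamine synthetase, at 988, 916 and 1349 and Asns at 508, 553 and 472. The pentose phosphate list gave 7 of 10, led by Taldo1 (5882, 6190 and 6858) and Tkt (2469, 2331 and 2496). Of gluconeogenesis and glycogen genes 8 of 15 were above, including the brain phosphorylase Pygb (577, 608 and 600) and the muscle-type synthase Gys1 (165, 172 and 164), whereas the liver forms Pygl, Gys2 and Pck1 were below. G6pc, a liver enzyme, was above at 106, 100 and 92.

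Promoter windows were matched in RefSeq for 15106 of the 19321 genes, 78.2%, each with 250 bases before and 50 after the start. The ratio of observed to expected CG pairs exceeded 0.6 in 76.5% of 6653 genes above the reference, in 37.0% of 7036 other genes above it on no array and in 0.3% of 1008 chemosensory receptor genes. It did so in 52.8% of the 15106 matched genes and in 36.5% of all 27025 windows in the table. With the receptor genes left out, the share of genes above the reference was 14.4% where that ratio was 0 to 0.2 and 70.1% where it was over 1. The motif TATAAA, searched on both strands, was in 7.5% of windows of genes above the reference and 13.1% of those above on no array, beside 12.3% of the matched genes and 14.2% of all windows. The motif GGGCGG, which itself holds a CG pair, was in 65.0% and 42.0%, beside 50.3% of the matched genes and 35.9% of all windows. The printed Olig2 promoter was CG-rich, with a ratio of 0.82 over its window and both motifs in it, and that of Cspg4 had a ratio of 0.63 with GGGCGG alone. Pdgfra, at 0.26, and Fabp7, at 0.28, had neither motif, and the window of Pdgfra is that of a start inside the gene.

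**Figure D5:**
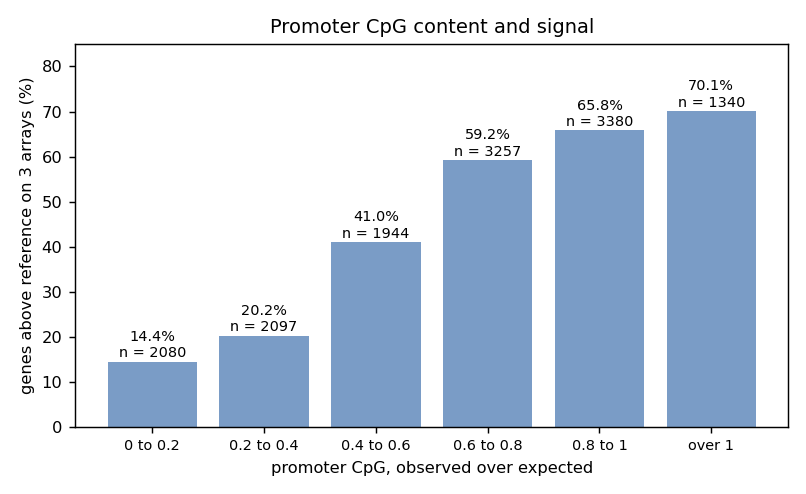
Share of genes above the reference on all 3 control arrays, in percent, by the ratio of observed to expected CG pairs in the promoter window, for genes other than chemosensory receptors, with the share and the number of genes over each bar. The share is 14.4% in the lowest class and 70.1% in the highest.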

How the data were processed

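Total RNA was amplified as amino allyl RNA, coupled to Cy5 and hybridised to TORAY arrays, per the labels' protocols. The authors deposited an intensity per spot, its median over 3 scans at different gain that a least-squares fit had combined, per the file headers. No source used here names the scanner software. An array held 27456 spots, among them 23473 probes and 2736 blank spots. The number of arrays, 3, limits the precision.

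The mean of the blank spots (58.9 to 61.1) was subtracted, each array was scaled by 0.951 to 1.035 to a common median of 25, values were floored at 2 SD of the blank spots (1.65 to 1.97) and log2 was taken. Of the probes, 20690 had a symbol in the platform annotation, 2783 had none and 0 had several. By Entrez ID 19208 genes matched RefSeq (GRCm38.p6), and only symbols, coordinates and promoter sequences were taken from it. Of 1283 genes with several probes, 497 had probes on both sides of the reference. Among listed members these were Acvr2b, Chd8, Cox6b2, Cxcl14, Ebf1, Elovl1, Ep300, Etv1, Fgf13, Gria1, Grin3a, Hoxa3, Il17rd, Klf9, Lepr, Nr2f1, Pdk1 and Slc1a2. Listed genes without a probe matched by symbol were not analysed here.

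No groups were compared. Named genes were the members of 40 lists, the 25 genes with the highest mean and the 12 with the largest range; other genes are said to be chosen after their values were seen. The members and lists were chosen with earlier results of these data known. The alternatives were other background levels, limma 3.58.1 in R 4.3.3 (checked on simulated data), normexp with quantile normalization, the authors' deposited processed intensity values, another probe per gene, a filter on dim probes and leaving out each replicate. The authors' values were a linear function of the spot intensity less blank, with a median of 25 (residuals under 0.6 for 100% of probes), as a fit to both sets of values showed; no source states it. Python 3.11.15, pandas 2.3.3, numpy 2.4.6 and matplotlib 3.10.9 were used.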

Additional observations from a re-analysis of the deposited data

How the results depend on the processing

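The count of 8340 genes above the reference stayed within 1.5 times under every alternative run except the blank limit, which gave 16614; leaving out a replicate gave 8420 to 8496 and limma's test 8187. With the blank limit the lineage, receptor and ligand counts of 75, 58 and 35 became 154, 188 and 143. With the 99th percentile of receptor probes they became 46, 34 and 15, and Cspg4 was then not above. With the 90th percentile the receptor and ligand counts became 92 and 55. The metabolic count moved under none of these by over 1.5 times. Ranked only among genes above the blank limit, the percentiles were 96.9 for Olig2, 94.5 for Pdgfra, 71.0 for Sox10 and 53.6 for Cspg4, and ranking by the dimmest probe put Cspg4 at 62.6. Of the 40 list counts, 26 moved over 1.5 times with the blank limit, 17 with the 99th and 9 with the 90th percentile, 1 (glutamate and GABA receptor subunits, from 5 to 3) with the dimmest probe, and the single microglial gene became 0 by limma and 2 without replicate 3 or with at least 2 arrays required. No paired analysis was possible because only control samples enter and no result comes from a test between groups. Calls of genes near the reference, the low Hox and Cspg4 readings among them, are limited by signal over background, and a dim probe does not show that a gene was silent.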

Other observations

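Imprinted genes were above the reference for 11 of 27, 40.7%, close to the 43.2% of all genes. Mest read 4904, 4213 and 5080, Snrpn 943, 913 and 1049, Ndn 797, 855 and 900 and Sgce 872, 749 and 846. Cdkn1c, a cell cycle inhibitor, read 186, 136 and 145 and the long RNA Meg3 61.3, 81.8 and 86.6. Igf2 (6.39, 7.94 and 7.37), H19, Dlk1 and Peg10 were below, and the Gnas probe read 16.5, 15.3 and 17.4.

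Some genes differed between the control replicates by more than the usual spread. Of the genes above the reference, 224 were lower in replicate 1 than in both other replicates by over 0.5 log2 units and 14 were higher; the corresponding counts were 25 and 24 for replicate 2 and 42 and 31 for replicate 3. The widest ranges were those of the potassium channel gene Kcnj16 (792, 410 and 122) and the kinase gene Prpf4b (156, 676 and 728), and Tmsb10, an actin-binding peptide, read 609, 1754 and 1025. The Y-linked genes Eif2s3y (270, 155 and 145) and Kdm5d (62.8, 53.7 and 52.7) were highest in replicate 1, where Xist (34.6, 63.2 and 73.3), the RNA of the inactive X chromosome, was lowest.

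Histocompatibility class I genes, chosen after their values were seen, also split by replicate. H2-K1 (1818, 992 and 1794), H2-T9 (1023, 501 and 1022), H2-Q7 (551, 262 and 512) and H2-T23 (508, 225 and 414) were lowest in replicate 2. H2-Q6 (151, 283 and 140) and H2-Bl (84.6, 144 and 77.5) were highest there. These genes are close relatives that probes may not tell apart, ICR mice are an outbred stock, and the part of either in the split was not tested.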
